A study of Mus musculus with 14 samples.

Results

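The Serpina3 protease inhibitor cluster is a run of related serpin genes on mouse chromosome 12. The 8 genes Serpina3c, Serpina3f, Serpina3g, Serpina3h, Serpina3i, Serpina3k, Serpina3m and Serpina3n were followed here, out of 55335 genes in the count table. They were chosen by the measured level of Serpina3g, which was low after external irradiation and high after CD45-targeted treatment. Values of the members in those groups are therefore given as descriptions. The members were tested only between IgG RIT and untreated libraries, and since the same untreated libraries entered the choice, that test is not independent of it. All mice carried Cdh5 CRE Rosa26 TdTomato, in which Cre under the promoter of the endothelial gene Cdh5 turns on a red fluorescent protein, and Lineage- CD45- TdTomato+ marrow cells were sorted. The reporter also stays on in any cell descended from one that once used the Cdh5 promoter. The groups were untreated mice (4 libraries), mice given 500 cGy of caesium total body irradiation (TBI, 5 libraries), mice given 20 µCi of IgG non-targeted radioimmunotherapy (IgG RIT, 3 libraries) and mice given 20 µCi of CD45-targeted radioimmunotherapy (CD45 RIT, 2 libraries). In radioimmunotherapy an antibody carries a radionuclide, here astatine per the series title, and treated mice were harvested 8 days later. The labels give no age, and do not say whether each library came from 1 mouse, so p-values measure only the spread between these libraries.

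Serpins are protease inhibitors that act once: the protease cuts an exposed loop of the serpin, and the serpin then changes shape and traps the protease in a covalent complex. Mice carry many copies of Serpina3 where humans carry 1 main gene, SERPINA3, whose product alpha-1-antichymotrypsin is an acute phase protein of the liver that inhibits cathepsin G. The loop differs between the mouse copies, so that they inhibit different proteases. Serpina3g, also called Spi2A, stays inside the cell and inhibits lysosomal cysteine cathepsins as well as serine proteases, and it is known as a survival factor of lymphocytes and haematopoietic progenitors. Serpina3n is a secreted inhibitor of granzyme B and leukocyte elastase, and rises in many tissues in inflammation. Serpina3k and Serpina3m are best known as liver genes. In bone marrow, serpins such as these face the granule proteases of developing neutrophils and mast cells.

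On GRCm38 the cluster members lie on chromosome 12 between 104146382 and 104414329. Serpina3c lies at chr12:104146382-104153870 on the minus strand, and the other members lie on the plus strand in the order Serpina3f (chr12:104214544-104221129), Serpina3g (chr12:104236245-104241939), Serpina3h (chr12:104247905-104253669), Serpina3i (chr12:104263122-104269372), Serpina3k (chr12:104338486-104346144), Serpina3m (chr12:104338486-104394257) and Serpina3n (chr12:104406729-104414329). Serpina3h is annotated as a transcribed unprocessed pseudogene. Serpina3k lies within the annotated span of Serpina3m on the same strand, so reads of these genes may be split between them. The genes are near copies: the longest transcripts of Serpina3f and Serpina3g were 87.1% identical, those of Serpina3k and Serpina3m 89.9%, those of Serpina3g and Serpina3n 77.5%. Of all 50-base windows in the transcripts of Serpina3g, 15.5% also occurred in the transcripts of another gene, most often Serpina3h (8.89%). The share was 10.6% for Serpina3f, 4.25% for Serpina3c and 6.90% for Serpina3n, and at 100 bases it was 3.49% for Serpina3g and 0.204% for Serpina3n. How reads shared between copies were counted is not given in the sources used here, so the levels of Serpina3h, Serpina3i, Serpina3k and Serpina3m in particular are uncertain.

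**Figure D1:**
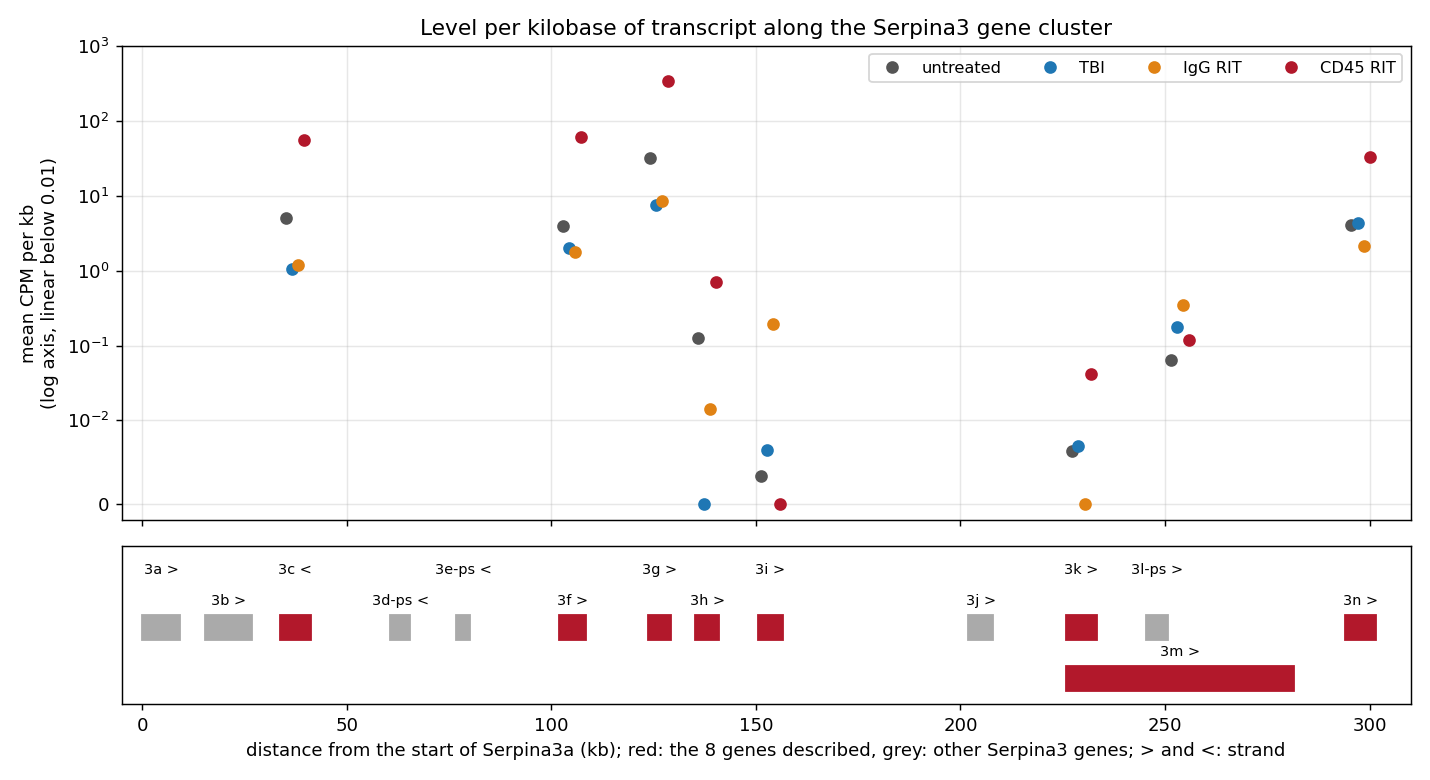
The upper panel plots the group mean of each Serpina3 gene in CPM per kilobase of transcript (log axis, linear below 0.01) at its place in the cluster, as distance in kilobases from the start of Serpina3a, with 1 colour per group. The lower panel draws the genes to scale, the 8 described ones in red. CD45 RIT means reach 344 for Serpina3g and 33.1 to 61.0 for Serpina3c, Serpina3f and Serpina3n, while the genes between Serpina3g and Serpina3n stay near 0.

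The promoters are shown for the 4 members that carried nearly all counts, because those that resemble each other can be set beside the levels below. Each line gives the 250 bases before the start annotated by RefSeq on GRCm38.p6, which can differ from the gene start given above, 5′ to 3′ on the strand of the gene. The capitals mark 9 bases that align between the genes and that in Serpina3g match TTCNNNGAA, the letters bound by STAT factors, which carry cytokine signals to the nucleus. Windows of these 250 bases and the 50 bases after the start were found for 5 of the 8 members, and that of Serpina3i is not printed. The 50 bases after the start are not printed for any member, but the alignments and motif searches below used them.
Serpina3g, plus strand, chr12:104235897-104236146: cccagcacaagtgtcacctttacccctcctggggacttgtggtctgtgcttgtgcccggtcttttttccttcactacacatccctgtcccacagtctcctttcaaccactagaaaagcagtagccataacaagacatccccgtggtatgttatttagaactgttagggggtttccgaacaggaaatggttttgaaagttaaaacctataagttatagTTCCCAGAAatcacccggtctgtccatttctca
Serpina3f, plus strand, chr12:104214294-104214543: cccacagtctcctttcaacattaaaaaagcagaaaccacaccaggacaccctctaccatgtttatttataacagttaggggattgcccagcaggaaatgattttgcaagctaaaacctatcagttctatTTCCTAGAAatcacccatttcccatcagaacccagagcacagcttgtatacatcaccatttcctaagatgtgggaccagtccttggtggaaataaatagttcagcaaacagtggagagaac
Serpina3c, minus strand, chr12:104153873-104154122: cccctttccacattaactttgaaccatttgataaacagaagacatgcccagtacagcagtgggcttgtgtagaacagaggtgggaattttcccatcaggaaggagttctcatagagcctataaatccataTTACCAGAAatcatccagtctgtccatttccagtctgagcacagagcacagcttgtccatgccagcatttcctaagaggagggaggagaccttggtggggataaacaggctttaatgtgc
Serpina3n, plus strand, chr12:104406458-104406707: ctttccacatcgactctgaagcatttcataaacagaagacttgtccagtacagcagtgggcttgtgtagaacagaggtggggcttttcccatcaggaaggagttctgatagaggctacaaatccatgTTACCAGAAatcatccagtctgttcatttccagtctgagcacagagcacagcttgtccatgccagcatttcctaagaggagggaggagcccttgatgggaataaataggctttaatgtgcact

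In pairwise alignments of the whole windows, with the 50 bases after the start and end overhangs left out, those of Serpina3c and Serpina3n were 92.6% identical over 297 columns. These genes lie at opposite ends of the cluster and on opposite strands. Those of Serpina3f and Serpina3g were 79.0% identical over 214 columns, and those of Serpina3g and Serpina3n 66.2% over 222 columns. The printed bases of Serpina3g end at 104236146, short of its gene start at 104236245, while those of Serpina3f end next to its gene start. From the RefSeq start, the 9 capital bases began at -33 in Serpina3g, -121 in Serpina3f, -120 in Serpina3c and -123 in Serpina3n. The position in Serpina3g thus depends on the start used. Counted from 1 at the 5′ end of the capital bases, Serpina3f differed from Serpina3g by C5T, which keeps the match to TTCNNNGAA. Serpina3c and Serpina3n both differed by C3A, which removes it. On both strands the STAT letters TTCNNNGAA occurred in 3 of the 5 member windows (Serpina3f, Serpina3g and Serpina3i) and in 8.29% of 32817 RefSeq windows of the same length. The NF-kappaB consensus occurred in the windows of Serpina3g and Serpina3i and in 8.46% of all windows, and TATAAA in those of Serpina3c and Serpina3f and in 13.6% of all windows. The interferon-stimulated response element, searched as GAAA, any 2 bases and GAAA, was in 0 of the 5 member windows and in 3.43% of all windows. These motifs were chosen after the windows had been seen, and a match is a match of letters only. The 3 STAT matches lie in the same aligned stretch of related windows, so they are not independent of each other. No enrichment is read from these shares.

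Serpina3g was the most abundant member in 13 of the 14 libraries. Its level in CPM, counts relative to the scaled library size, was 89.1, 63.3, 48.1 and 65.7 in the untreated libraries, from 1442 to 3401 counts. In the TBI libraries it was 14.6, 13.3, 12.3, 15.9 and 23.3, and in the IgG RIT libraries 17.0, 21.3 and 16.1. In the CD45 RIT libraries it was 630.2 and 816, from 10335 and 16959 counts. The untreated libraries thus sat between the other groups, with no overlap between untreated and TBI, untreated and IgG RIT, or CD45 RIT and any other group, while TBI and IgG RIT overlapped. Group means were 66.5 ± 16.9 CPM (SD, n = 4) for untreated, 15.9 ± 4.38 (SD, n = 5) for TBI, 18.1 ± 2.78 (SD, n = 3) for IgG RIT and 723 ± 131 (SD, n = 2) for CD45 RIT libraries.

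**Figure D2:**
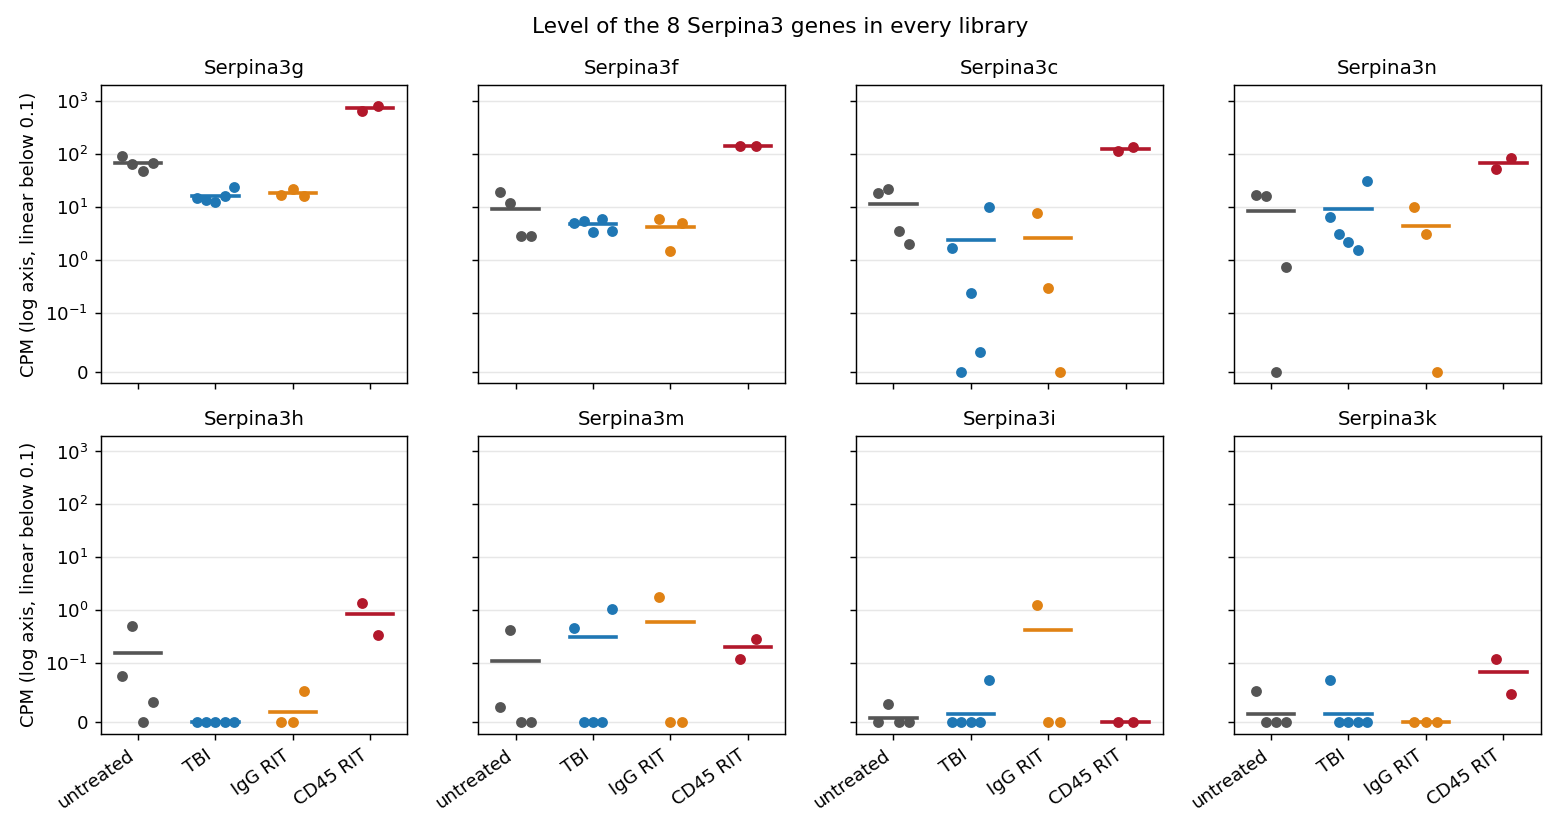
Each panel plots 1 gene, with the level in CPM (log axis, linear below 0.1) by group. Points are libraries and bars are group means. For Serpina3g the CD45 RIT libraries lie at 630.2 and 816 CPM, the untreated ones from 48.1 to 89.1 and the TBI and IgG RIT ones from 12.3 to 23.3.

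After IgG RIT Serpina3g fell. The log2 fold change against untreated was -1.87 (SE 0.27), a 3.67-fold lower level, with an adjusted p of 0.00211 by edgeR's quasi-likelihood test over 21509 genes, and it was lower in 3 of 3 libraries than in any untreated library. Serpina3g was the only one called of the 6 members that passed the filter on low counts, where called means an adjusted p under 0.05. Over all genes tested in this comparison 16.4% were called, 10.7% as lower and 5.75% as higher, and 27.4% lay lower with no overlap between the groups. The other members tested did not pass: Serpina3f was at -1.14 on the log2 scale (SE 0.67, adjusted p = 0.258), Serpina3c -2.12 (SE 1.90, adjusted p = 0.470), Serpina3n -0.94 (SE 1.73, adjusted p = 0.751) and Serpina3m 2.36 (SE 2.11, adjusted p = 0.471). For Serpina3h the adjusted p was 0.313, on at most 1 count in any IgG RIT library. The value for Serpina3m rested on IgG RIT replicate 1, without which it was -4.56 (adjusted p = 0.443). The median log2 fold change of all genes was -0.42, so the fall of Serpina3g is to be read against that shift.

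After TBI, described without a test since this contrast chose the cluster, the log2 fold change of Serpina3g against untreated was -2.07 (SE 0.23). Without TBI replicate 6, the library with the highest Serpina3g level among the irradiated ones, it was -2.25. It was the only member called of 6 tested, where 4.31% of all genes were called, 3.38% as lower, and the only one whose groups did not overlap, where 12.8% of all genes lay lower with no overlap. Since this contrast chose the cluster, nothing is read from these counts. In the same contrast Serpina3f gave -0.96 (SE 0.57), Serpina3c -2.30 (SE 1.59) and Serpina3n 0.09 (SE 1.48). Between IgG RIT and TBI the log2 difference in Serpina3g was 0.19 (SE 0.24). In that comparison 0 of the 6 members were called, and 0.242% of all genes were, 52 in number. The number over all genes was 2020 without TBI replicate 6. As the choice of the cluster used the TBI libraries, nothing is read from the members here.

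After CD45 RIT, again as a description, Serpina3g stood 10.9-fold above untreated (log2 fold change 3.44, SE 0.28), 45.5-fold above TBI (5.51, SE 0.28) and 39.8-fold above IgG RIT (5.32, SE 0.34). Without scaling factors the difference from untreated was 2.75 on the log2 scale. Against untreated the calls were Serpina3f and Serpina3g, both higher, 2 of 6 tested, where 33.1% of all genes were called, 14.5% as higher and 18.6% as lower. Serpina3c, Serpina3f, Serpina3g and Serpina3n lay higher than untreated with no overlap, as did 17.5% of all genes. Against IgG RIT the same 2 members were called higher, where 37.7% of all genes were called and 20.2% as higher. Against TBI 4 members were called higher (Serpina3c, Serpina3f, Serpina3g and Serpina3h), where 38.6% of all genes were called and 19.6% as higher. Serpina3c, Serpina3f, Serpina3g, Serpina3h and Serpina3n lay above both TBI and IgG RIT with no overlap, as did 18.2% of all genes against TBI and 21.7% against IgG RIT. The count of 4 called against TBI was 2 with the replicate number as a block. As the choice of the cluster used the CD45 RIT libraries, nothing is read from these counts either.

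**Figure D3:**
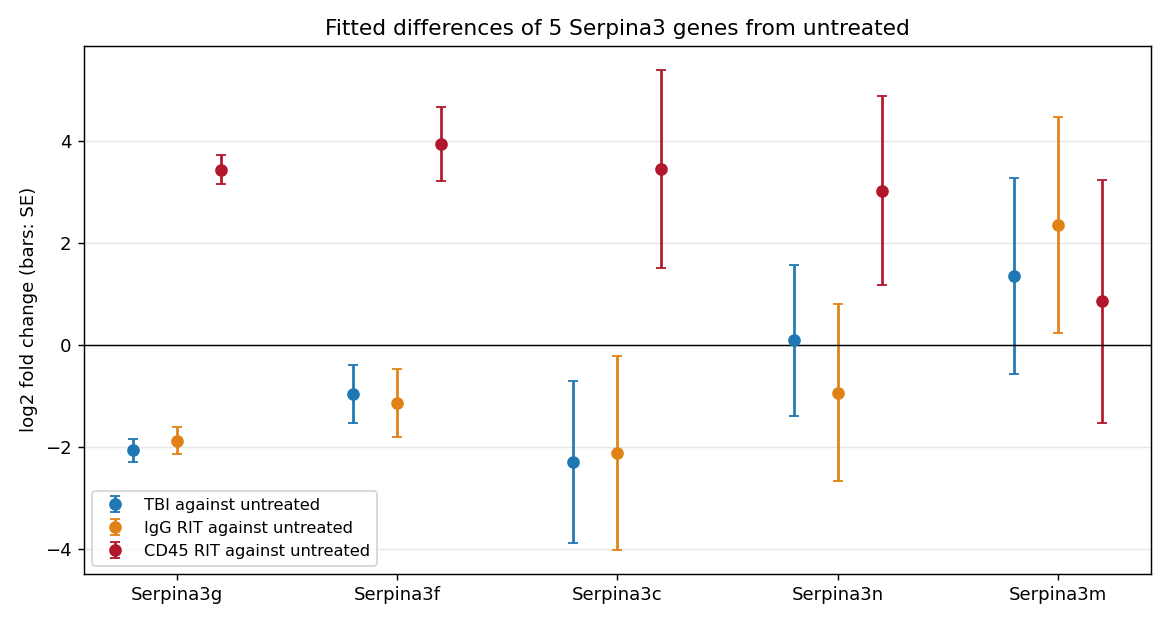
Points are fitted log2 fold changes against untreated and bars are 1 SE, for 5 members and the 3 treatments. Serpina3g has the shortest bars, at -2.07 after TBI, -1.87 after IgG RIT and 3.44 after CD45 RIT, and the bars of Serpina3c, Serpina3n and Serpina3m are far wider.

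Serpina3f, whose gene lies next to Serpina3g, had 18.8, 11.6, 2.80 and 2.84 CPM in the untreated libraries. It had 4.92, 5.50, 3.39, 5.97 and 3.45 CPM in TBI and 5.85, 1.44 and 4.99 CPM in IgG RIT libraries. In the CD45 RIT libraries it had 141 and 139 CPM. Untreated replicates 1 and 2 were high and replicates 3 and 4 low, the low pair fell below every TBI library, and only the CD45 RIT libraries lay apart from all others. Serpina3f stood 15.5-fold above untreated in the CD45 RIT libraries (log2 fold change 3.95, SE 0.73), where its mean was 139.8 ± 1.28 CPM (SD, n = 2).

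Serpina3c, on the opposite strand at the edge of the cluster, was at 18.1, 21.6, 3.51 and 2.01 CPM in untreated libraries. In TBI it was at 1.66, 0, 0.239, 0.0339 and 9.76 CPM, and in IgG RIT at 7.53, 0.299 and 0 CPM. In the CD45 RIT libraries it was at 115 and 133 CPM. Within groups its counts spread widely, from 58 to 721 in untreated, 0 to 136 in TBI and 0 to 130 in IgG RIT libraries, and its fitted changes carried standard errors of 1.59 to 2.35 on the log2 scale. The CD45 RIT libraries lay above all others, with a log2 fold change of 3.46 (SE 1.94) against untreated, which was not called, and 5.76 (SE 1.92) against TBI.

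Serpina3n, the secreted inhibitor, was at 16.6, 16.1, 0 and 0.728 CPM in untreated libraries. In TBI it was at 6.44, 3.11, 2.19, 1.56 and 31.3 CPM, and in IgG RIT at 10.1, 3.04 and 0 CPM. In the CD45 RIT libraries it was at 51.4 and 85.2 CPM. TBI replicate 6 lay above all untreated libraries and the other TBI libraries lay between the untreated extremes, and the log2 fold change after TBI was 0.09 (SE 1.48). It was -1.33 without TBI replicate 6, -0.33 and -0.29 without untreated replicate 3 or 4, -0.28 with no scaling factors and 2.57 with the replicate block, so its sign was not fixed. The CD45 RIT libraries lay above all others (log2 fold change against untreated 3.03, SE 1.85, not called). Serpina3n had 0 counts in untreated replicate 3 and in IgG RIT replicate 3, where Serpina3g had 1442 and 307 counts.

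The other 4 members were close to the floor of 3 counts in most libraries. Serpina3h, the pseudogene, had 3, 17, 0 and 1 counts in untreated libraries, 0 counts in all 5 TBI libraries, 0, 0 and 1 in IgG RIT and 23 and 7 in CD45 RIT. Its mean of 0.870 CPM in CD45 RIT was at least 6.49-fold higher than TBI and at least 5.43-fold higher than IgG RIT, with the floor of 3 counts set per library. Serpina3h had the largest share of 50-base windows that also occur in other genes of all members (21.9%). Serpina3m had over 3 counts in 5 libraries, with 31 counts in IgG RIT replicate 1, 14 in untreated replicate 2, 13 and 15 in TBI replicates 1 and 6 and 6 in CD45 RIT replicate 2. Serpina3i had 22 counts in IgG RIT replicate 1 and at most 1 in any other library, and Serpina3k had at most 2 counts in any library. Serpina3i and Serpina3k did not pass the filter and were not tested.

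Set against gene length, Serpina3g had the highest mean of the members in every group. In CPM per kilobase, Serpina3g was at 31.6 ± 8.04 (SD, n = 4) in untreated libraries, above Serpina3c at 5.10 ± 4.51, Serpina3n at 4.04 ± 4.47 and Serpina3f at 3.94 ± 3.38, which did not differ beyond their spread. In CD45 RIT, Serpina3g was at 344 ± 62.4 (SD, n = 2), Serpina3f at 61.0 ± 0.560, Serpina3c at 56.0 ± 5.92 and Serpina3n at 33.1 ± 11.6, and Serpina3f and Serpina3c differed by less than the spread of the latter. The share of the 8 genes' counts that came from Serpina3g was 67.1% and 69.5% in the CD45 RIT libraries, against 55.7% to 92.1% in untreated, 33.8% to 67.8% in TBI and 39.0% to 81.7% in IgG RIT libraries. The CD45 RIT libraries thus fell within the untreated range of that share while the summed level of the 8 genes was 1056 ± 166 CPM (SD, n = 2) against 95.5 ± 40.1 (SD, n = 4). TBI replicate 6 was the library in which Serpina3n (45.4% of the counts) exceeded Serpina3g (33.8%). Across the 14 libraries, Pearson's r of log2 CPM was 0.862 between Serpina3f and Serpina3g and 0.821 between Serpina3c and Serpina3g, but over the 12 libraries without CD45 RIT it was 0.359 and 0.691. For Serpina3g and Serpina3n it was 0.512 and 0.0737. These values describe libraries that share treatments and differ in cell makeup.

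The cells labelled endothelial carried few endothelial transcripts. The 16 endothelial markers summed to 105 to 150.3 CPM in untreated, 52.0 to 99.0 in TBI, 60.2 to 74.2 in IgG RIT and 111 and 372 in CD45 RIT libraries. Cdh5 itself had 0 to 6 counts in untreated, 0 to 5 in TBI and 0 in every RIT library. Markers of stromal cells, the mesenchymal cells of the marrow niche that make the chemokine Cxcl12, moved with Serpina3g. The 16 stromal markers summed to 2845 to 6884 CPM in untreated, 914 to 1917 in TBI, 511 to 1541 in IgG RIT and 59837 and 80775 in CD45 RIT libraries. Of the 16, 10 were called lower after TBI and 3 after IgG RIT, and 16 were called higher after CD45 RIT, and none of them was at 0 throughout a group. Sums of 12 macrophage markers also moved with Serpina3g, at 155 ± 23.9 CPM (SD, n = 4) for untreated, 35.6 ± 12.2 (SD, n = 5) for TBI, 48.0 ± 20.95 (SD, n = 3) for IgG RIT and 3354 ± 359 (SD, n = 2) for CD45 RIT libraries. After CD45 RIT 6 of the 12 were called higher (Vcam1, which the stromal list also holds, C1qa, C1qb, C1qc, Timd4 and Cd68), 3 were called lower (Csf1r, Cd163 and Adgre1) and 3 were not called. Vcam1 gave 3184 CPM of the sum and C1qb 37.5, while C1qa had 0 and 258 counts, C1qc 2 and 637 and Timd4 0 and 940 in the CD45 RIT libraries. The part of macrophage RNA in the Serpina3 levels was not tested. Sums of 10 haematopoietic progenitor markers were 8529 ± 642 CPM (SD, n = 4) for untreated, 718 ± 408 (SD, n = 5) for TBI, 678 ± 134 (SD, n = 3) for IgG RIT and 88.0 ± 88.6 (SD, n = 2) for CD45 RIT libraries. Erythroid marker sums were 6687 to 12243 CPM in untreated, 23340 to 205700 in TBI, with replicate 6 highest, 154720 to 176060 in IgG RIT and 61220 and 272110 in CD45 RIT. Of the progenitor sums, Mpo gave a mean of 7518 CPM in untreated, 433 in TBI, 573 in IgG RIT and 0.127 in CD45 RIT libraries. Of those 10 markers, 3 were called lower after TBI, 3 after IgG RIT and 7 after CD45 RIT, and the rest were not called. In bulk libraries fewer cells of a type and less RNA per cell cannot be told apart.

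Measured per 1000 counts of the 16 stromal markers, Serpina3g lost the difference between CD45 RIT and untreated. It had 12.9, 11.7, 16.9 and 10.5 counts per 1000 stromal counts in untreated libraries, 7.63, 10.5, 13.4, 9.72 and 16.4 in TBI, and 10.5 and 10.1 in CD45 RIT. The IgG RIT libraries had 11.0, 41.7 and 11.6. The CD45 RIT, TBI and untreated ranges overlapped on this scale, and IgG RIT replicate 2, which had the lowest stromal sum of all libraries, stood above the rest. The mean for Serpina3f was 1.58 ± 1.04 (SD, n = 4) over untreated, 3.33 ± 0.816 (SD, n = 5) over TBI, 3.40 ± 0.509 (SD, n = 3) over IgG RIT and 2.04 ± 0.447 (SD, n = 2) over CD45 RIT libraries. Serpina3c had 2.04 ± 1.60, 1.60 ± 2.96, 1.82 ± 2.67 and 1.78 ± 0.189 in the same order. Serpina3n had 1.37 ± 1.53, 6.23 ± 8.84, 4.16 ± 3.62 and 0.957 ± 0.138. Col1a1 and Col1a2 gave 1385 and 2003 CPM of the mean untreated stromal sum of 5352, and 9209 and 13843 of 70306 in CD45 RIT libraries. Their log2 fold changes after CD45 RIT were 2.73 and 2.79, against a median of 4.23 over the 16 markers and 3.44 for Serpina3g. The ratio thus depends on which markers are summed. The stromal list was chosen with earlier results of these data known, and no test was made of this ratio.

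**Figure D4:**
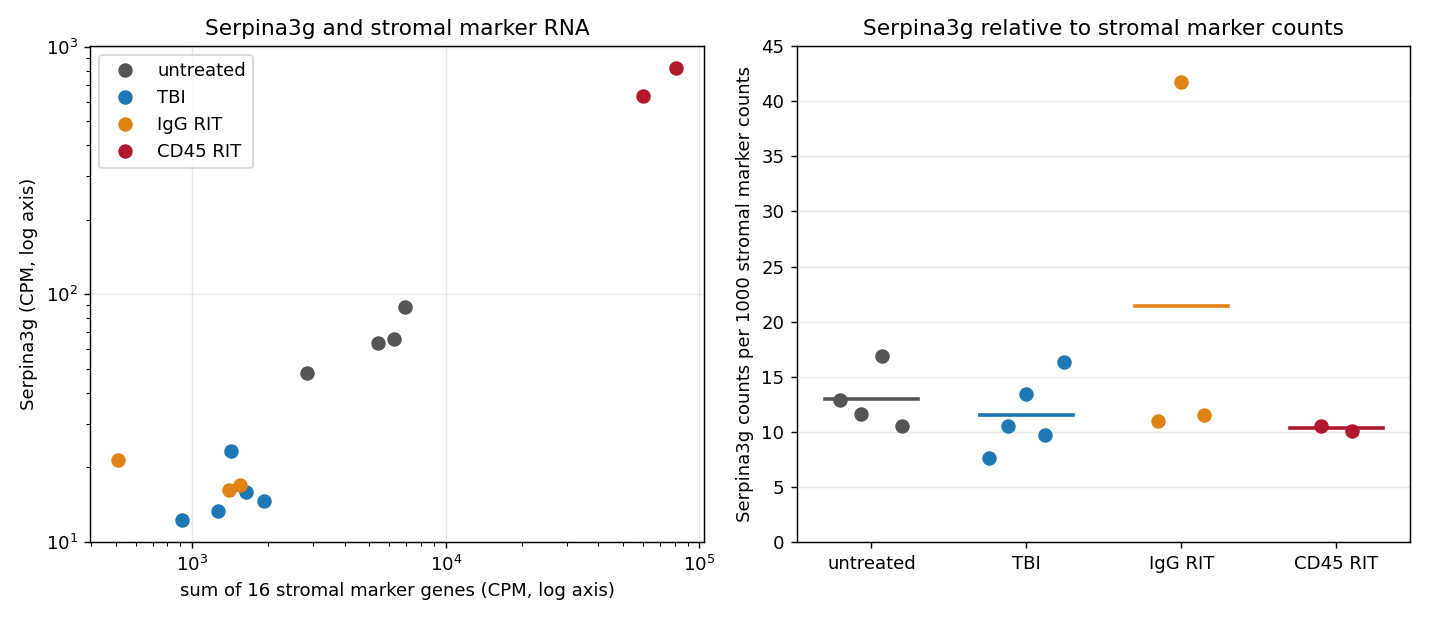
The left panel plots Serpina3g in CPM against the summed CPM of the 16 stromal markers, both on log axes, with 1 point per library. The right panel plots Serpina3g counts per 1000 stromal marker counts by group, with bars at the group means. The 2 CD45 RIT libraries stand apart on the left and lie at 10.1 and 10.5 on the right, within the range of the TBI libraries.

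Among the genes whose levels most resembled that of Serpina3g over the 14 libraries, of 8149 compared, were Lrrc61 (Pearson's r of log2 CPM 0.986), Mgst1 (0.984), Copz2 (0.983) and Mxra8 (0.978). Mgst1 encodes a membrane-bound glutathione transferase. Lrrc61 was at 34.3 CPM in untreated, 9.42 in TBI, 12.0 in IgG RIT and 387 in CD45 RIT libraries. Over the 12 libraries without CD45 RIT the r of these genes with Serpina3g was 0.919 to 0.944. The genes most like Serpina3f were Ephx2 (0.948), Lrpap1 (0.940), Emp1 (0.935), Fam3a (0.932) and Phlda3 (0.929), and without the CD45 RIT libraries their r was 0.563 to 0.724. Those most like Serpina3n were Actr10 (0.805), Cldn10 (0.784), Emc3 (0.747), Lats1 (0.731) and Acadsb (0.728). Without CD45 RIT the r of the last 5 was 0.635 to 0.725. The most alike genes thus followed Serpina3g more closely than they did Serpina3f or Serpina3n, with and without the CD45 RIT libraries, which is a description of libraries that share their treatments.

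The other serpins of clade A, the chromosome 12 family to which Serpina3 belongs, were mostly not measurable, with 5 of 16 tested. Serpina12, which encodes the adipokine vaspin, was at 5.88 CPM in untreated libraries, fell after TBI (log2 fold change -3.05, SE 0.73, adjusted p = 0.0372 by edgeR) and rose after CD45 RIT to 160.1 CPM (4.77, SE 0.90, adjusted p = 0.00189). After IgG RIT its value was -1.55 (SE 0.83, adjusted p = 0.213). The call after TBI was lost without any of TBI replicates 1, 3, 4 or 5 or untreated replicates 1, 2 or 4. Serpina1b and Serpina1d, copies of the gene of the elastase inhibitor alpha-1-antitrypsin, had 0 counts in every untreated library. Serpina1b had 8 and 147 counts and Serpina1d 103 and 632 counts in the CD45 RIT libraries. Both were called higher after CD45 RIT, and with the replicate block 1 of the 3 clade A calls was left. In IgG RIT libraries they had 0 to 24 and 0 to 83 counts and were not called (log2 fold changes 6.52 and 8.30, adjusted p = 0.0723 and 0.0512 by edgeR). Over the alternatives 0 to 1 of the clade A genes were called higher after IgG RIT. Serpina1 and Serpina3 copies are abundant in liver. Alb, the albumin gene of hepatocytes, had 0 counts in every library, and 10 of 12 hepatocyte markers had 0 counts in both CD45 RIT libraries. The list's abundant gene was Trf, which encodes transferrin and is not limited to liver. It was at 281 CPM in untreated and 3522 CPM in CD45 RIT libraries (log2 fold change 3.65, SE 0.35, adjusted p = 2.0e-05), and it fell after TBI (-3.02) and IgG RIT (-1.61).

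Among serpins of other clades, 14 of 18 were tested. After TBI 4 were called lower and 10 were not called (median log2 fold change -0.06, all genes -0.16), and after IgG RIT 4 were called lower and 10 were not called (median -1.15). After CD45 RIT 5 were called higher, 2 lower and 7 were not called (median 0.83, all genes -0.37). Serping1, the C1 inhibitor of complement, fell after TBI (-3.30, SE 0.47) and IgG RIT (-1.98, SE 0.55) and rose after CD45 RIT (3.43, SE 0.57). Serpinh1, a chaperone of collagen, did likewise (-2.34, -1.91 and 3.56). Serpine2, which inhibits thrombin and urokinase, fell after TBI (-2.22, SE 0.54) and rose after CD45 RIT (3.98, SE 0.67). Serpinf1, an antiangiogenic factor, fell after TBI (-2.14, SE 0.51) and IgG RIT (-3.01, SE 0.64) and rose after CD45 RIT (2.38, SE 0.63). Serpinb1a, an intracellular inhibitor of neutrophil proteases, went the other way from Serpina3g after CD45 RIT and fell (-5.50, SE 1.44, adjusted p = 0.0122). The counts lower were 2 after TBI without TBI replicate 1, 3, 4 or 5 or untreated replicate 1, 2 or 4, 2 after IgG RIT without IgG RIT replicate 2 or untreated replicate 1 or 2, and 4 after CD45 RIT without CD45 RIT replicate 1.

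Of 20 listed proteases, mostly serine and cysteine proteases of the kinds serpins inhibit, 15 were tested. Cpa3, a carboxypeptidase, is of neither kind, and it is among those called lower after each treatment. After TBI 8 were called lower and 7 were not called (5 lower without TBI replicate 5). After IgG RIT 7 were called lower, 1 higher and 7 were not called, and after CD45 RIT 6 were called lower, 4 higher and 5 were not called. Over all genes 3.38% were called lower after TBI, 10.7% lower and 5.75% higher after IgG RIT, and 18.6% lower and 14.5% higher after CD45 RIT. Those shares stand beside the counts of the other lists as well. Elane, neutrophil elastase, was at 1107 CPM in untreated libraries and fell after TBI to 66.6 CPM (-4.06, SE 0.54) and after IgG RIT (-3.54, SE 0.65), and Ctsg, cathepsin G, fell after TBI (-3.89, SE 0.45). Mcpt8, a basophil protease, fell after TBI (-3.91, SE 0.90) and IgG RIT (-5.70, SE 1.22), and Cpa3 of mast cells after IgG RIT (-4.54, SE 0.72). In the CD45 RIT libraries Elane and Ctsg had at most 1 count and Mcpt8 had 1 count in each. Genes of lysosomal cathepsins, proteases of the kind Serpina3g can inhibit, were called in both directions. Ctsh fell after TBI (-2.39, SE 0.41) and IgG RIT (-2.77, SE 0.51), Ctsk fell after TBI (-2.30, SE 0.40), and Ctss and Ctsc were not called in any of the 3 comparisons with untreated. By edgeR, Ctsb rose after both IgG RIT (2.22, SE 0.41, adjusted p = 0.00534) and CD45 RIT (1.91, SE 0.44, adjusted p = 0.00651). Ctsl (2.61, SE 0.36), Ctsk (from 14.4 to 148 CPM, adjusted p = 0.000372) and the secreted protease Htra1 (3.87, SE 0.82) also rose after CD45 RIT. The granule proteases fell where the sums of progenitor markers were low, and outside CD45 RIT those sums were mostly Mpo. The part of progenitor cells in the falls was not tested.

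Of 22 genes of the IL-6, STAT3 and acute phase list, all tested, 4 were called lower and 18 were not called after TBI (median log2 fold change -1.52), 7 were called lower and 15 were not called after IgG RIT (-1.75), and 15 were called higher, 2 lower and 5 were not called after CD45 RIT (2.24). Lifr, the receptor of leukaemia inhibitory factor, fell after TBI (-2.27, SE 0.36) and IgG RIT (-1.77, SE 0.43) and rose after CD45 RIT (3.62, SE 0.45). Lbp, which carries bacterial lipopolysaccharide, fell after TBI (-2.10, SE 0.54) and IgG RIT (-2.30, SE 0.66) and rose after CD45 RIT (2.22, SE 0.66). Cebpd, a transcription factor of the acute phase, fell after TBI (-1.59, SE 0.24) and IgG RIT (-1.47, SE 0.29). It rose after CD45 RIT (1.60, SE 0.30). Bcl3 fell after IgG RIT (-2.19, SE 0.63) and rose after CD45 RIT (2.38, SE 0.63). Socs3, the feedback inhibitor that STAT3 induces, rose after CD45 RIT (4.16, SE 0.60, adjusted p = 0.000346), as did Hp, haptoglobin (3.51, SE 0.79). Il6 itself had 153 to 339 counts in untreated, 6 to 76 in TBI, 0 to 1 in IgG RIT and 0 in each of the CD45 RIT libraries. The counts lower were 2 after TBI without TBI replicate 1, 4 or 5 or any 1 untreated library, 3 after IgG RIT without IgG RIT replicate 2, 4 there without untreated replicate 4, and 5 after CD45 RIT without CD45 RIT replicate 1. The count higher after CD45 RIT was 9 without scaling factors and 8 with the replicate block. The part of the stromal and progenitor marker sums in these counts was not tested.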

How the data were processed

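RNA of sorted marrow cells was made into 14 libraries with Qiagen microPrep, SMART-Seq v4 and Nextera XT kits, per the labels' protocols. The authors deposited whole-number counts per gene, with no normalization that the values show. STAR 2.7.7a, FastQC 0.11.9, edgeR 3.36.0 and the human build hg38 are named in the submitters' processing notes, yet all 54587 gene identifiers found in GENCODE M21 had the same coordinates there, so positions are given on mouse GRCm38. The counter, the use of strand and the treatment of shared reads are not given in the sources used here. All sample columns were assigned by library name, and TBI replicate 2 was not analysed here. Library numbers ran from 11 to 16 in the RIT groups and from 1 to 10 in the others, so library number and RIT cannot be told apart.

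Counts were tested with edgeR 4.0.16 in R 4.3.3. Of all genes, filterByExpr (minimum count 10, minimum total 15) kept 21509, TMM factors scaled the libraries, and 1 robust quasi-likelihood fit took in every library with a term for each group. Adjusted p-values are Benjamini-Hochberg values over all genes tested in a contrast, and genes under 0.05 were called. The SE was taken from the fold change and its F statistic. Depth was 16412779 to 31077588 counts per library. CPM values of single genes and of sums over lists use the scaled library size. There were no molecular identifiers, so the floor of 3 counts covers counting error only.

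The members and gene lists were chosen with earlier results of these data known. Named were all 8 members, the 5 genes most correlated with Serpina3f, Serpina3g and Serpina3n (log2 CPM, prior count 2, mean at least 3), and per list, treatment and direction up to 3 called genes with mean log2 CPM of 2 or more. A gene so named may also have been called after a treatment not given for it. Serpina1b, Serpina1d, Serpina12, Il6, Ctsh, Ctss, Ctsc and single marker genes fall outside this rule and were chosen after their values were seen, as was the correlation without CD45 RIT. Of the genes and lists this rule covers, 1 correlated gene and 1 list are not reported here. Of 8 cell type lists, the neutrophil and B lineage sums are in the closing section. Alternatives were RLE factors, no scaling factors, no filter, only the compared groups, the replicate number as a block, DESeq2 1.42.0 and leaving out each library. On simulated counts over 21509 genes, 85 of 200 changed genes were recovered for IgG RIT against untreated (57.3% of those changed 32-fold, 24.4% of those changed 4-fold), with 2 false calls. For CD45 RIT against untreated 59 of 200 were recovered (58.3% and 8.62%), with 1 false call. Far more than 200 genes were called in the data, so these rates need not hold there. The first RefSeq window was used where a gene had several.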

Additional observations from a re-analysis of the deposited data

Results flagged for a closer look

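Sets of 1 member's values within a group of 4 or more libraries were screened, 11 in all. In 4 of the 11, a single library stood far from the others, with a gap to the nearest larger than Dixon's 95% value allows. For normal and independent values chance gives about 1 in 20 such sets. These sets include near-zero counts and share libraries, so that rate does not hold here. In TBI replicate 6, Serpina3n was at 31.3 CPM, with the other TBI libraries at 6.44 or below, and Serpina3c was at 9.76 CPM, with the others at 1.66 or below. The same library had the highest erythroid marker sum of the TBI group (205700 CPM) and the lowest depth of all 14 (16412779 counts). In untreated replicate 2, Serpina3h was at 0.509 CPM and Serpina3m at 0.419 CPM, on 17 and 14 counts, with the other untreated libraries at 3 counts or fewer.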

How the results depend on the processing

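The call of Serpina3g after IgG RIT held in all 13 alternatives, with log2 fold changes of -2.39 to -1.59 and adjusted p of 2.48e-06 to 0.0128. Its differences were -2.25 to -1.89 after TBI, 2.75 (no scaling factors) to 3.72 after CD45 RIT, and -0.16 to 0.37 between IgG RIT and TBI, where the sign depends on the setting. The number of members called was 2 for CD45 RIT against TBI with the replicate block, against 4, and 3 to 4 without any 1 library; for CD45 RIT against IgG RIT it was 2 to 3, and elsewhere it was unchanged. Serpina3m after IgG RIT was -4.56 without IgG RIT replicate 1, its library with 31 counts, and 5.33 without untreated replicate 2. Samples share only a replicate number: of 13 same-number pairs 1 correlated over 0.1 (range -0.0896 to 0.139), and 3 of 12 libraries correlated best with their own number. With the replicate block the calls over all genes were 38 after TBI (926 without), 2063 after IgG RIT (3536), 4062 after CD45 RIT (7116), 5098 for CD45 RIT against IgG RIT and 3756 against TBI. DESeq2 called 2485 after TBI and 5942 after IgG RIT, and a fit of only the compared groups 3234, 6457 and 3850 after TBI, IgG RIT and CD45 RIT. For IgG RIT against TBI the count was 52, and 69, 2085, 509 and 203 with the block, DESeq2, only these groups and no scaling factors. It was 2020 without TBI replicate 6, and 2 to 65 without any other 1 library of these groups. Without scaling factors calls were 735 higher and 4326 lower after IgG RIT and 1796 higher and 6107 lower after CD45 RIT, and with RLE factors 1549 and 1766 after IgG RIT. The median log2 fold change of all genes was -0.28, -0.94 and -1.08 after TBI, IgG RIT and CD45 RIT without scaling factors, and -0.16, -0.42 and -0.37 with TMM. Without CD45 RIT replicate 1, which leaves 1 library in that group, the median after CD45 RIT was -1.47. Over all alternatives list counts lower after TBI ran from 0 to 5 (other clades), 1 to 8 (proteases) and 1 to 7 (IL-6), after IgG RIT from 2 to 7, 6 to 10 and 3 to 10, and counts higher after CD45 RIT from 3 to 7, 4 to 5 and 8 to 15. The cause of these shifts was not tested. At this depth Serpina3i and Serpina3k could not be tested.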

Other observations

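Neutrophil marker sums were 84.8 ± 27.7 CPM (SD, n = 4) for untreated, 35.6 ± 8.94 (SD, n = 5) for TBI, 102 ± 116 (SD, n = 3) for IgG RIT and 9.83 ± 12.4 (SD, n = 2) for CD45 RIT libraries. B lineage sums were 924 ± 618, 1543 ± 807, 302 ± 218 and 521 ± 23.1 CPM in the same order. Of the CD45 RIT sum Ebf1 alone gave 352 CPM, against 87.4 CPM in untreated libraries. Ms4a1, Pax5, Rag1 and Jchain had 0 counts in both CD45 RIT libraries. The leptin receptor Lepr, which marks the stromal cells around marrow sinusoids, was at 80.1 ± 19.2 CPM in untreated, 16.9 ± 14.3 in TBI, 39.3 ± 5.56 in IgG RIT and 1742 ± 123 in CD45 RIT libraries. CD45 itself (Ptprc), the antigen of the targeted antibody and of the negative gate, was at 72.8 ± 17.8 CPM in untreated, 31.1 ± 15.8 in TBI, 10.4 ± 5.19 in IgG RIT and 0.0610 and 31.9 in the CD45 RIT libraries.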
